A study of Mus musculus with 6 samples.

Results

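The Schwann cell myelin genes Mbp, Pmp22, Prx, Mag, Cnp, Egr2, Sox10 and S100b were examined in hind leg muscle of control (Con) and exercise (EX) mice. They are 8 of the 16759 genes of the deposited table and were found by their gene symbol, with no filter on low values. The 8 genes were put together with the Con and EX values of these libraries already known, so their difference between the groups is given as a description and without a test. RNA sequencing covered 3 Con and 3 EX mice with 1 library per mouse. All were male C57BL/6J mice, aged 8 weeks at the start, and no genotype or drug differed between the groups. EX mice had 6 weeks of treadmill running, with 5 sessions of 60 min in each week and 22 km in all, and their muscle was taken 24 h after the last session. Con mice were not trained. The paper describes perfusion with PBS and does not state it for each group. The muscles of the hind leg are not named further, and a piece about as large as a soybean was used for RNA after the fat between muscles had been removed.

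Schwann cells are the glia of peripheral nerve. Those around large axons wrap them in myelin, a stack of membrane that speeds conduction, while those around small axons and at the nerve terminal do not. The transcription factor SOX10 sets the Schwann cell lineage and, together with EGR2 (also called Krox20), switches on the genes of myelin. In skeletal muscle, Schwann cells lie in the intramuscular branches of motor and sensory nerves and cover the neuromuscular junction, so their transcripts are a small part of muscle RNA.

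Because SOX10 and EGR2 are themselves members, the bases before the start sites were searched for the letters of 2 motifs. These were ACAAAG, a form of the core motif of SOX factors, and GCGNGGGCG, a motif of EGR factors. Other forms of either motif were not searched. Both strands of the 250 bases before each start were read, and no match of one motif overlapped a match of the other. The table of RefSeq start sites used here, for the GRCm38.p6 build, matched 6 of the 8 members with 15 start sites, and the starts of Mbp and Sox10 were not analysed here. ACAAAG was found before a start of 2 members, Mag and Cnp, and it lies before 18.6% of the 27025 genes in the table. GCGNGGGCG was found before none of the 6 members, and it lies before 5.33% of all genes. These are matches of letters, and no binding was measured. The windows of Mag and Cnp are shown because they hold the match. That of Prx is shown because its log2 fold change over all 6 libraries was the largest, in size, among members with a window. Without EX replicate 1 or Con replicate 3, that of Mag was larger. Capitals mark ACAAAG or its reverse complement.
Prx, chr7:27499074-27499323, plus strand: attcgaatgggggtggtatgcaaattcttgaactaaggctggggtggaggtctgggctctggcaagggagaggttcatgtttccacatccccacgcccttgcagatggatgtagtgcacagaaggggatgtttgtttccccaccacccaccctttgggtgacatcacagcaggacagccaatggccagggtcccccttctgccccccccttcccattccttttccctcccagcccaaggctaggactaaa
Mag, chr7:30914864-30915113, minus strand: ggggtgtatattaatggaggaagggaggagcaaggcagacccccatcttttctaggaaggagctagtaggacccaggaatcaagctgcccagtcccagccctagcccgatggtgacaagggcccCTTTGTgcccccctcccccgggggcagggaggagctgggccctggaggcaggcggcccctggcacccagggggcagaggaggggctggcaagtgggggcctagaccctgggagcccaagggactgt
Cnp, chr11:100574689-100574938, plus strand: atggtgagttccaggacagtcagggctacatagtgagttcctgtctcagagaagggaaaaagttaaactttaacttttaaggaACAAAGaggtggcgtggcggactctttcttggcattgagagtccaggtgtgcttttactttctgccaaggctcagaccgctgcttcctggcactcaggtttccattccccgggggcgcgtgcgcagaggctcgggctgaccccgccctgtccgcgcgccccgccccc

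Counts on genes totalled between 13845362 and 16240431 per library, with Con replicate 1 the lowest. One count was worth between 0.0626 and 0.0712 CPM, where CPM are the counts scaled by TMM normalization to a common library size. All counts of the 8 members were whole numbers as deposited. With edgeR's quasi-likelihood test and Benjamini-Hochberg adjustment over 16716 genes, 12.0% had an adjusted p-value under 0.05, with 1016 (6.08%) higher and 997 (5.96%) lower in EX. The split was not the same in other fits, with 798 higher and 1252 lower in edgeR with totals that left out the 20 most abundant genes, 355 and 764 with limma on log2(FPKM + 0.1), 361 and 749 on log2(FPKM + 1) and 315 and 1196 on log2(TPM + 0.1). In the order of these fits, the median log2 fold change of all genes was -0.03, -0.05, -0.02 and -0.08. Without EX replicate 1, 2 or 3, edgeR called 1125, 1290 and 1148 genes. In such bulk RNA, fewer Schwann cells, less RNA per Schwann cell and other differences in the make-up of the piece cannot be told apart.

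Among the structural proteins of myelin, Pmp22, Mbp and Prx were lower in EX than in Con. Pmp22 (gene 18858), a small membrane protein of compact myelin whose dosage causes inherited neuropathy, had 38.9, 34.5 and 34.3 CPM in the Con libraries and 29.0, 31.5 and 29.9 CPM in the EX libraries. Every EX value lay under every Con value, and the fitted log2 fold change was -0.25 (standard error 0.06), a change of -16.0%. Mbp (17196), which holds the inner faces of the myelin membrane together, had 23.3, 22.2 and 21.3 CPM in Con and 16.0, 17.4 and 15.7 CPM in EX. The groups of Mbp did not overlap either, and its log2 fold change was -0.44 (standard error 0.08). The gene of Mbp also makes golli transcripts in T cells and other cells, and the deposited counts do not separate them. Prx (19153) encodes periaxin, a scaffold that links the outer Schwann cell membrane to its surroundings. The Con libraries held 185, 190 and 221 counts of Prx and the EX libraries 142, 113 and 114. Its level was 13.0 ± 0.908 CPM in Con and 7.77 ± 1.0 CPM in EX (SD, n = 3), again without overlap, and its log2 fold change was -0.74 (standard error 0.10), a change of -40.3%. EX replicate 1 stood above the other EX libraries in Prx. An antisense gene shares 5.38% of the exon bases of Prx in the GRCm38 annotation, and its reads cannot be told apart here.

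Mag (17136), an adhesion protein of the membrane next to the axon, was scarce. Its counts were 20, 22 and 12 in Con and 21, 10 and 9 in EX. Con replicate 3 lay with the low EX libraries and EX replicate 1 with the high Con libraries, so the groups overlapped. The log2 fold change of -0.48 had a standard error of 0.33, and it ranged from -0.96 without EX replicate 1 to -0.27 without EX replicate 3. Leaving out Con replicate 3 gave -0.74, and leaving out EX replicate 2 gave -0.31.

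Cnp (12799), an enzyme of the cytoplasm between myelin layers that is also made at lower levels outside glia, was the single member with a positive fold change. Its levels were 13.2, 12.4 and 13.7 CPM in Con and 14.1, 14.3 and 13.3 CPM in EX. The lowest EX value lay within the range of Con, and the log2 fold change was 0.09 (standard error 0.09). It was 0.06 with totals that left out the 20 most abundant genes and -0.02 with limma on log2(TPM + 0.1), which changes the test and the unit together. The median of all genes was -0.03 and -0.08 in these fits. With single libraries left out, the fold change of Cnp ranged from 0.05 (Con replicate 2) to 0.12 (EX replicate 3). Dnajc7 on the opposite strand shares 4.23% of the exon bases of Cnp, and its own log2 fold change was -0.03 (standard error 0.05).

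Of both transcription factors, Sox10 was lower in EX and Egr2 was not separated. For Sox10 (20665) the Con libraries gave 47, 38 and 41 counts and the EX libraries 32, 18 and 22, or 3.35, 2.41 and 2.57 CPM against 2.01, 1.14 and 1.39 CPM. The groups did not overlap, although EX replicate 1 came close to Con replicate 2. The log2 fold change was -0.86 (standard error 0.22), a change of -44.8%. It was the largest among the members in this fit, while Prx was larger without Con replicate 1 (-0.74 against -0.71) and with limma on log2(FPKM + 1) (-0.55 against -0.43). For Egr2 (13654) 18, 16 and 12 counts stood against 13, 17 and 13 in EX. Its values overlapped, with a log2 fold change of -0.15 (standard error 0.31).

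S100b (20203) encodes a calcium-binding protein used as a marker of Schwann cells, and fat cells also make it. The Con libraries had 14, 14 and 21 counts of it and the EX libraries 12, 21 and 14. A library of each group held the same 21 counts, the groups overlapped, and the log2 fold change was -0.11 (standard error 0.30). Without single libraries, the fold change of S100b ranged from -0.38 to 0.08 and that of Egr2 from -0.33 to 0.04.

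**Figure D1:**
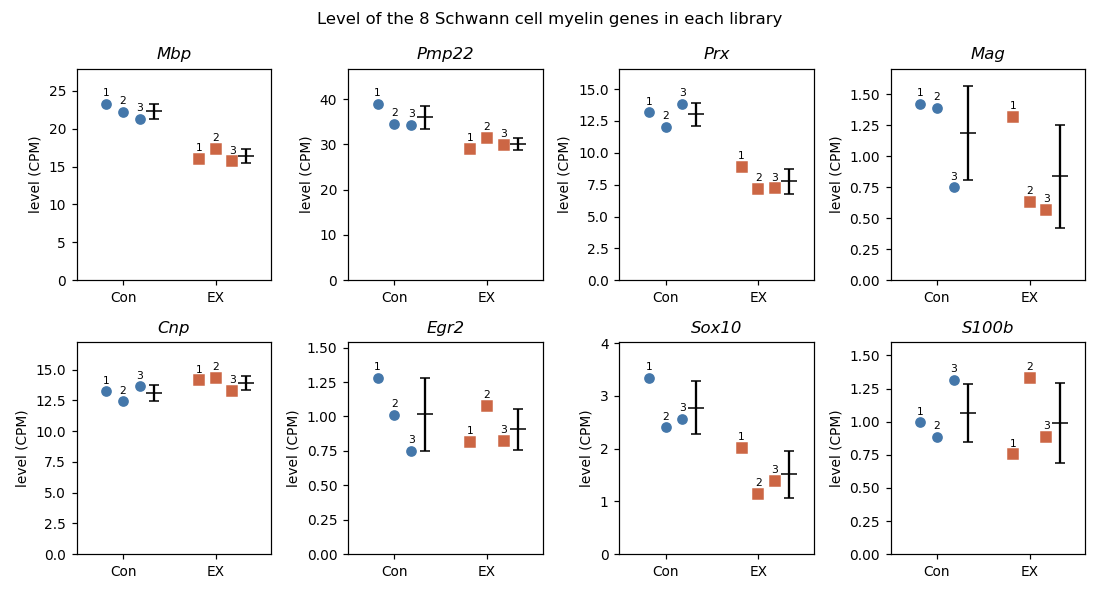
Level of each member in CPM (vertical axis from 0) in the Con libraries (circles) and EX libraries (squares), with the replicate number above each point and the mean ± SD of the 3 libraries beside it. Pmp22, Mbp, Prx and Sox10 have all EX points under all Con points, while Mag, Cnp, Egr2 and S100b overlap.

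Counted together, 4 of the 8 members had groups that did not overlap, all lower in EX, and over all genes 26.7% did not overlap and 13.3% were lower without overlap. Since the members were chosen on this contrast, nothing is read from that count. The median log2 fold change of the members was -0.35, and that of all genes was 0.00. The summed level of the members was 87.0 to 95.7 CPM in the Con libraries and 69.8 to 74.5 CPM in the EX libraries. Pmp22 and Mbp make up most of that sum.

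Per length of transcript, the members spanned a wide range in Con muscle. Pmp22 was highest at 24.3 ± 1.61 (SD, n = 3) FPKM, followed by Mbp at 12.6 ± 0.420, Cnp at 6.64 ± 0.345, Prx at 2.98 ± 0.231 and Sox10 at 1.18 ± 0.208 FPKM. S100b at 0.813 ± 0.174, Mag at 0.560 ± 0.173 and Egr2 at 0.400 ± 0.105 FPKM were the lowest. Down to Prx, neighbours in this order were separated by far more than their spread. The lowest Sox10 value (1.03 FPKM) and the highest S100b value (1.01 FPKM) almost met, as did the lowest S100b value (0.68) and the highest Mag value (0.67). Mag and Egr2 overlapped.

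The length that the authors' FPKM imply was examined as a measure that the choice of genes had not used, though how the authors set the length of a gene is not given in the sources used here. For each member, the count over the FPKM was set against the median of that ratio in the library, over genes whose mean reached 1 FPKM. This length was not fixed, since for Mbp it ranged over 0.05 on the log2 scale among the libraries, more than the rounding of the FPKM gives. On the log2 scale the EX value differed from the Con value by between -0.01 (Prx) and 0.01 (Cnp), that is by less than 1 percent in length. Exact permutation tests, two-sided, gave p from 0.1 for Cnp, the smallest that 3 against 3 allow, to 1, and the adjusted p was 0.8 or more for all 8 members. For Mbp, which has 16 annotated transcripts, the length differed by 0.90% (exact permutation p = 0.4).

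Within a group, the members did not move as one. In EX replicate 3 all 8 members lay under the mean of their group, and in Con replicate 1 7 of 8 lay above it. EX replicate 1 was the highest EX library for Prx, Mag and Sox10, and EX replicate 2 for the other 5. Over the 6 libraries, deviations from the group mean of log2 CPM gave correlations with a median of 0.175 in the 28 pairs of members, and 5 pairs were above 0.7. Mbp and Egr2 (0.93), Pmp22 and Egr2 (0.88), Mbp and Pmp22 (0.81), Prx and Sox10 (0.79) and Mag and Sox10 (0.71) were these pairs, while Mag and S100b were at -0.74. All points share the depth of their library, only 4 degrees of freedom are left, and the counts of Mag, Egr2 and S100b are small. In these 3 genes counting error alone gives a coefficient of variation between 23.6% and 27.4%, against 16.5% to 49.4% observed. For Mbp, the observed value was 4.45% in Con and 5.49% in EX, about what counting gives (5.43% and 6.21%).

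**Figure D2:**
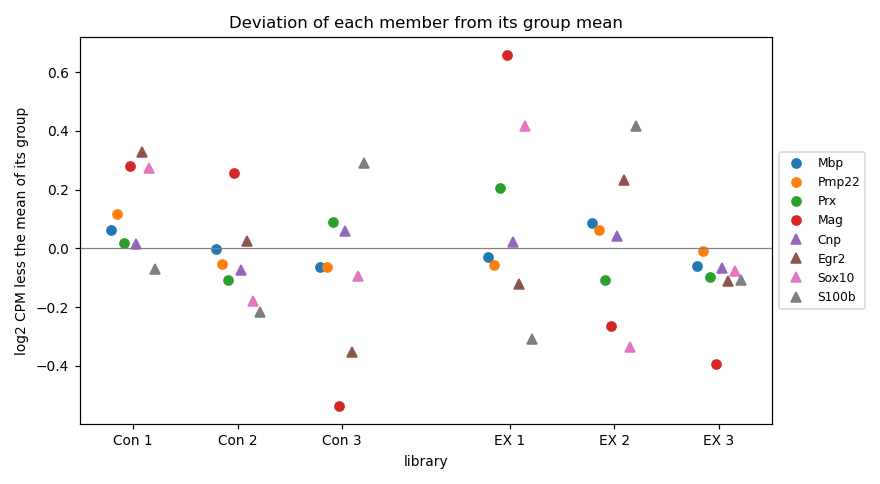
Deviation of each member from the mean of its group (log2 CPM, vertical axis) in each library (horizontal axis), with 1 symbol per gene. The points of EX 3 all lie under 0, and in EX 1 Mag is at 0.66 while S100b is at -0.31.

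Other genes of myelin were taken from a list of known myelin proteins and enzymes. The list was drawn up with earlier results of these libraries known, so its counts are a description and no independent evidence of a direction. Of 15 such genes, 5 were lower in EX at an adjusted p-value under 0.05 (edgeR's quasi-likelihood test), or 33.3% against 5.96% of all genes called lower. Each fit that left out 1 library called fewer, with 2 genes in the fits that left out Con replicate 1, EX replicate 1 and EX replicate 3 in turn and 3 genes in those that left out Con replicate 2, Con replicate 3 and EX replicate 2, again all lower. Drp2 (13497), which forms a complex with periaxin, held 150, 179 and 162 counts in the Con libraries and 126, 101 and 112 in the EX libraries, without overlap. It fell by 0.59 on the log2 scale (standard error 0.11, edgeR adjusted p = 9.7e-05), from 10.7 ± 0.601 to 7.14 ± 0.756 CPM (SD, n = 3). Gjc3, a gap junction protein of myelinating glia, fell by 0.94 (adjusted p = 7.0e-04), from 39, 46 and 47 counts to 24, 23 and 24. Gldn, which Schwann cells secrete to gather sodium channels at nodes of Ranvier, fell by 1.10 (adjusted p = 0.032) with 7 to 24 counts per library. Cadm4, an adhesion molecule facing the axon, fell by 0.60 (adjusted p = 0.043), and Mal, a myelin proteolipid named here after its values were seen, fell by 0.53 (adjusted p = 0.037). Drp2 was called in each of 14 alternative fits and Gjc3 in the 13 that tested it, while Mal was called in 7 of 14, Cadm4 in 5 of 14 and Gldn in 3 of 13.

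All 15 of these genes had a fold change under 0, also in each alternative fit that tested them all, and for 10 of them, or 66.7%, the groups did not overlap, against 13.3% of all genes. The median of the list was -0.60 on the log2 scale, or -0.56 over the 12 genes that averaged at least 10 counts. The abundant genes of the list were not alike. Beside Drp2, the highest per length were Cd9, Tspan2 and Cldn19. Cd9, a tetraspanin of many cell types, had a log2 fold change of -0.03, with a 95% interval from -0.17 to 0.10. Tspan2, another tetraspanin, had -0.24 (adjusted p = 0.055). Cldn19, a tight junction protein of Schwann cells, had -0.48 (adjusted p = 0.097), with 61, 48 and 47 counts in the Con libraries and 29, 42 and 45 in the EX libraries.

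**Figure D3:**
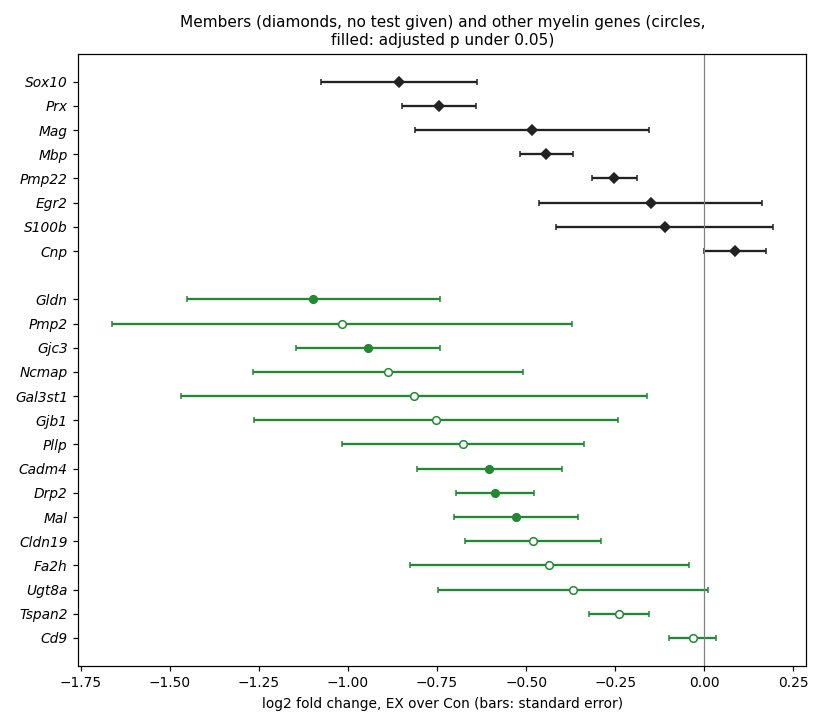
Log2 fold change of EX over Con (horizontal axis, bars are standard errors) of the 8 members (diamonds) and of 15 other myelin genes (circles, filled where the adjusted p-value was under 0.05). All circles lie under 0, from Gldn at -1.10 to Cd9 at -0.03, and Cnp is the single diamond above 0.

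Of 14 Schwann cell transcription factors and signalling genes, 1 (7.14%) was called lower in EX, against 5.96% of all genes, and the median log2 fold change was -0.05 over the 11 genes that averaged at least 10 counts. That gene was Erbb3, the Schwann cell receptor of neuregulin, which fell by 0.50 on the log2 scale (standard error 0.12, adjusted p = 3.1e-03). The Con libraries held 112, 130 and 145 counts of Erbb3 and the EX libraries 102, 77 and 104. It was called in 10 of 14 alternative fits, and not without EX replicate 2. The EGR cofactors Nab1 and Nab2 had -0.03 and 0.03. Pou3f1, which precedes Egr2 in Schwann cell development, had 6 to 13 counts per library and a log2 fold change of -0.15 (standard error 0.40).

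Of 15 genes of non-myelinating and repair Schwann cells, 2 were higher and 1 was lower (6.67%), where 6.08% of all genes were higher and 5.96% lower. Cdh19, a cadherin of Schwann cells and their precursors, fell by 0.65 (adjusted p = 0.045) and was called in 4 of the 13 alternative fits that tested it. Gfap, an intermediate filament of non-myelinating Schwann cells, rose from 1, 1 and 0 counts to 9, 8 and 6 (adjusted p = 3.5e-03). The summed counts give a ratio of 11.1 with a counting interval from 2.74 to 97.0. Gfap was called in each of the 12 alternative fits that gave it an adjusted p-value, and DESeq2 gave it none. Jun, a driver of the repair state that most cells express, rose by 0.45 (adjusted p = 1.1e-11), from 127.3 ± 3.75 to 173.8 ± 2.21 CPM.

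Most transcripts of axons were scarce. Of 15 listed genes, Chat, Slc18a3 and Scn10a were not in the table, and 10 of the other 12 had a mean under 10 counts. Of the 12, 2 were called higher, against 6.08% of all genes. Snap25, a protein of transmitter release, was at 0 counts in all Con libraries and at 8, 4 and 12 in EX, at least 2.56-fold higher than a floor of 3 counts per library (adjusted p = 3.2e-04). Uchl1, an enzyme abundant in neurons, rose from 29, 28 and 26 counts to 46, 52 and 44, by 0.72 on the log2 scale (adjusted p = 8.5e-03). The neurofilament genes Nefl, Nefm and Nefh had at most 2 counts in a library. Stmn2, a growth-associated protein of axons and the other gene of the list that averaged at least 10 counts, had a log2 fold change of 0.17 (adjusted p = 0.67). Uchl1 was not called without EX replicate 2 or with DESeq2. Snap25 was called in each of the 12 alternative fits that gave it an adjusted p-value, and DESeq2 gave it none.

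In the sheath of the nerve, 10 genes of perineurium and endoneurium gave 1 lower and 1 higher gene, against 5.96% and 6.08% of all genes. The groups did not overlap for 5 genes lower in EX (50%) and 1 higher, against 13.3% and 13.4% of all genes. With limma on log2(TPM + 0.1), 3 genes were called lower and 0 higher. Totals without the 20 most abundant genes gave 2 lower and 1 higher. Tjp1, a tight junction protein that blood vessels also express, fell by 0.17 (adjusted p = 0.015), and Wif1, a secreted Wnt inhibitor, rose by 0.69 (adjusted p = 0.013). In fits without Con replicate 3 and without EX replicate 3 neither was called. Tjp1 was not called without Con replicate 2 or EX replicate 2 either, nor Wif1 without EX replicate 1. Slc2a1, the glucose transporter of the perineurial barrier, had a log2 fold change of -0.28 (adjusted p = 0.059).

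Myelin membrane is rich in cholesterol. Of 18 genes of cholesterol synthesis and its control, 1 (5.56%) was called, against 12.0% of all genes. It was Fdft1, which fell by 0.18 on the log2 scale (adjusted p = 0.011). The groups did not overlap for 7 genes higher in EX and 2 lower (11.1%), against 13.4% and 13.3% of all genes. The list spanned -0.18 to 0.23, with 8 genes under 0, or 12 on log2(TPM + 0.1), where the median of all genes was -0.08. The call of Fdft1 was lost without Con replicate 1 or 2 or without any single EX library.

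Egr2 is also an immediate early gene, induced briefly in many cells. Of 11 other immediate early genes in the table, 3 were higher and 3 (27.3%) lower in EX, against 6.08% and 5.96% of all genes, and without Con replicate 2, 3 lower genes were left. Egr1, the closest relative with high counts, fell from 31.9 ± 5.16 to 22.4 ± 0.179 CPM (log2 fold change -0.50, adjusted p = 2.6e-06). Egr3 had -0.18 (adjusted p = 0.66), and Nr4a1, the most abundant gene of the list, had 0.02 (adjusted p = 0.81). Btg2 fell by 0.54 and Junb by 0.46, and with Egr1 they were called in 14 of 14 alternative fits. Nr4a2 rose by 0.99, Atf3 by 0.64 and Arc by 0.57, with calls in 11 of 13, 8 of 14 and 2 of 13 alternative fits that tested them, and DESeq2 called none of these 3.

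**Figure D4:**
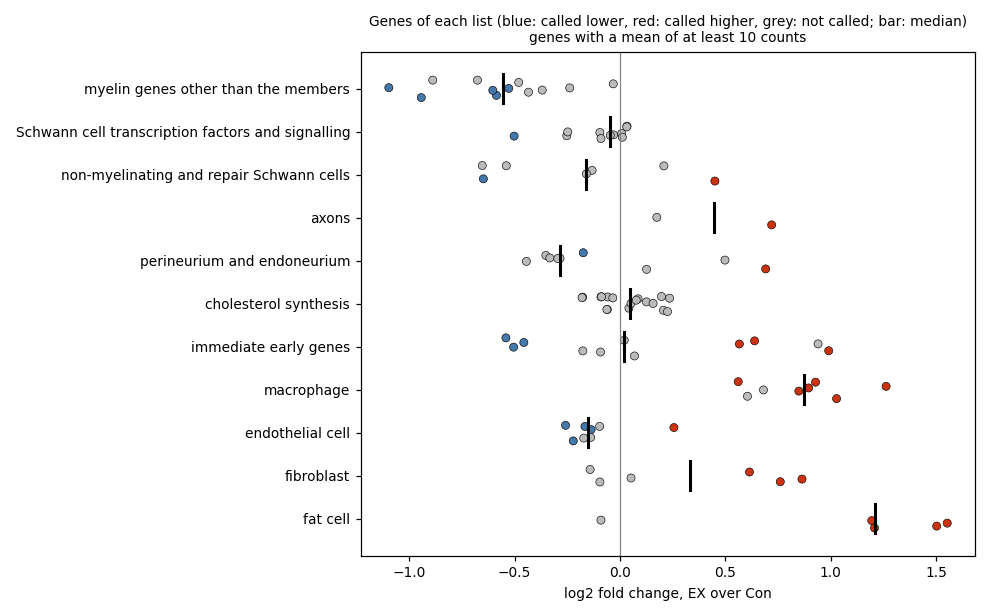
Log2 fold change of EX over Con (horizontal axis) of each gene that averaged at least 10 counts, by list (vertical axis), with called genes in colour and a bar at the median. The other myelin genes have a median of -0.56, with no called gene above 0, while the macrophage and fat cell genes lie mostly above 0.

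Markers of other cell types moved with the groups as well, and their part in the results on myelin genes was not tested. The counts that follow stand against 6.08% of all genes called higher and 5.96% called lower. Macrophage markers were higher for 6 of 8 genes, with a summed level of 40.5 to 44.5 CPM in Con and 74.5 to 81.7 CPM in EX, and Lyz2 was the highest per length. Of 6 fat cell markers 5 were higher, Fabp4 being the highest per length and the exception. Of 6 fibroblast markers 3 collagens were higher, and Dcn, the highest per length, had a log2 fold change of -0.10 (adjusted p = 0.13). Of 8 endothelial markers 4 were lower, with Cdh5 the highest per length, and 1 was higher, all between -0.26 and 0.26 on the log2 scale. The summed level of the endothelial markers was 715.9 to 729.4 CPM in Con and 629.6 to 648.3 CPM in EX. The 8 muscle fibre markers, with Acta1 the highest per length, summed to between 160200 and 166600 CPM in Con and between 173500 and 182200 CPM in EX, so the label of muscle held. T cell markers, which bear on golli transcripts of Mbp, had at most 4 counts in a library (Cd2 the highest per length). Melanocyte markers, which bear on Sox10, had at most 3 counts (Mlana the highest per length). Among oligodendrocyte markers Opalin and Olig2 were not in the table, Mog had at most 1 count in a library, and Mobp, the highest per length, reached 7 counts in EX replicate 3.

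Likeness to the members was measured over all libraries. The genes whose log2 CPM over the 6 libraries was most like the mean standardised level of the members were Atg14 (Pearson's r = 0.995), Fabp3 (0.993), Tmem131 (0.993), Mia3 (0.988) and Hoxa10 (0.985), ranked among 10879 genes whose mean reached 1 FPKM. These r describe 6 points that share the depth and the 2 groups. The mean standardised level of the members was 0.87, 0.19 and 0.30 in Con and -0.35, -0.17 and -0.84 in EX, so Con replicate 1 and EX replicate 3 marked its ends. In the same order of libraries, Fabp3, a fatty acid carrier of muscle fibres, had 374.6, 315.1 and 309.9 CPM in Con and 270.8, 282.4 and 241.2 CPM in EX.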

How the data were processed

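RNA from hind leg muscle of 3 Con and 3 EX mice was sequenced by the authors on the DNBseq platform with paired-end reads of 150 bp. Per the paper's methods, the clean reads were matched to GRCm39 with HISAT, while GEO's processing notes name GRCm38.p6, cutadapt, featureCounts and MultiQC. The tool behind the counts is not given further in the sources used here. The authors deposited estimated counts, which are not normalized, together with FPKM and TPM values that they scaled from them, for 16759 genes. The 6 columns of group means were not used. Replicates were not pooled.

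The estimated counts were rounded and compared with edgeR 4.0.16 (TMM, glmQLFit and glmQLFTest, R 4.3.3) over the 16716 genes with a count, with Benjamini-Hochberg adjustment, a threshold of 0.05 and no limit on the fold change. Log2 CPM used a prior count of 2. The members and lists were chosen with earlier results of these data known, so no test of their levels between the groups is given for the members. Named genes are the members, the called genes of each list of nerve, cholesterol and immediate early genes (at most 4 in a direction), the 4 most abundant of the other myelin genes, the most abundant gene of each marker list, Egr1 and Egr3, and the 5 genes most alike in pattern. Pou3f1, Stmn2, Nr4a1, Nab1, Nab2, Slc2a1, Mal, the neurofilaments, Dnajc7, Mog, Olig2 and Opalin were added after their values were seen. Alternatives were RLE scaling, totals without the 20 most abundant genes, a filter of 1 FPKM, DESeq2 1.42.0, limma 3.58.1 on log2(FPKM + 0.1), log2(FPKM + 1) and log2(TPM + 0.1), a replicate block and each library left out. On simulated counts, edgeR recovered 86.7% of 200 genes changed 1.5-fold and 98.0% of those changed 2-fold, with 5.43% and 7.10% of calls false. DESeq2 recovered 76.7% and 93.5%, with 0.843% and 0.887% false. The changed genes were drawn from genes with a mean of at least 20 counts. These shares therefore do not cover scarcer genes such as Mag, Egr2, S100b, Gldn, Gfap and Snap25. Some genes of myelin are not reported here and were left out of their list. Counting floors and intervals cover counting error only.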

Additional observations from a re-analysis of the deposited data

How the results depend on the processing

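The median log2 fold change of the 8 members ranged from -0.45 (limma on log2(TPM + 0.1)) to -0.24 (limma on log2(FPKM + 1)) over 14 alternatives, and from -0.40 to -0.25 without single libraries. In those limma fits on TPM and FPKM, the median of all genes was -0.08 and -0.02. With the filter of 1 FPKM, 4 members were left. Over all genes, DESeq2 called 1174, limma on log2(FPKM + 0.1) 1119 and limma on log2(FPKM + 1) 1110, against 2013, and edgeR without single libraries 1125 to 1757. For the other myelin genes, DESeq2 and limma on log2(FPKM + 0.1) called 2 each, limma on log2(FPKM + 1) and on log2(TPM + 0.1) 3 each, all lower, and fits without single libraries 2 to 3. For Schwann cell transcription factors and signalling, totals without the 20 most abundant genes gave 2 calls, limma on log2(FPKM + 0.1) and on log2(FPKM + 1) gave 0 each, and fits without single libraries gave 0 to 1. For non-myelinating and repair Schwann cells, the filter and DESeq2 gave 1 call each, and neither gave Gfap an adjusted p-value. For axons, the filter gave 1, DESeq2 gave 0, with no adjusted p-value for Snap25, and fits without single libraries gave 1 to 2. For perineurium and endoneurium, DESeq2 gave 0, both limma fits on FPKM gave 1 each, and fits without single libraries gave 0 to 2. Totals without the 20 most abundant genes and limma on log2(TPM + 0.1) gave 3 each. For cholesterol synthesis, DESeq2 and both limma fits on FPKM gave 0, and fits without single libraries gave 0 to 1. For immediate early genes, DESeq2 gave 3 calls and fits without single libraries gave 3 to 6. The filter tests fewer genes and the fits without a library hold fewer samples. For the other changes the cause was not tested.

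Same-numbered Con and EX libraries did not deviate together (correlations over genes of -0.08, -0.05 and -0.07). This gave no sign that the numbers pair the mice, but it cannot exclude a pairing. With the replicate number as a block, 4 of the other myelin genes were called in place of 5, the median of the members was -0.35, and no list's count moved by more than 1.5 times. Mag, Egr2 and S100b, with 9 to 22 counts per library, had standard errors between 0.30 and 0.33 on the log2 scale. For Mag the observed coefficient of variation was 49.4% in EX and 31.9% in Con, against 27.4% and 23.6% from counting. For Egr2 in EX it was 16.5% against 26.4%. With 3 libraries per group such values are uncertain.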
